A study of Mus musculus with 19 samples.

Results

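Secreted WNT ligands, their Frizzled receptors and the secreted antagonists of the SFRP and DKK families were described in mouse embryonic stem cells (ESC) and neural progenitors (NeuP). The genes were taken by symbol from the RNA table, as every name that begins with Wnt, Fzd, Sfrp or Dkk followed at once by a digit. This gave 37 of the 24016 genes listed, made up of 19 Wnt, 10 Fzd, 4 Sfrp and 4 Dkk genes. WNT proteins are secreted lipid-modified signals that bind Frizzled receptors on the cell surface. With an LRP co-receptor they stabilise beta-catenin, which acts with TCF/LEF factors on target genes, and with other receptors they steer cell polarity and movement. SFRP proteins carry a Frizzled-like domain and bind WNTs outside the cell, DKK proteins act on the co-receptors, and many of these genes are Polycomb targets in ESC.

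The study set ESC depleted of Nup153, a nucleoporin of the nuclear pore basket, and NeuP against control ESC. The ESC were of the E14 line, grown on irradiated embryonic fibroblast feeders, and received lentivirus with hairpin shNup153 #2, hairpin shNup153 #4 or a non-target control hairpin, followed by at least 4 days of puromycin. NeuP came from embryoid bodies treated with Noggin and then FGF2 and EGF, and the labels name no cell line or hairpin for them. RNA was measured in 2 NeuP libraries, 1 library per hairpin and 1 control ESC library. Binding was given as peak lists from chromatin immunoprecipitation (ChIP) of Ring1B (NeuP, both hairpins, control ESC), Cbx7 (control ESC) and Oct4 (hairpin #2, control ESC), and from DamID, which marks DNA near a fusion of Dam methylase to Nup153 or Oct4 in ESC. Ring1B is the catalytic subunit of Polycomb repressive complex 1 and Cbx7 is the subunit of that complex that reads the H3K27me3 mark.

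Library depth, worked out from the steps of the low values, was 32.2 and 24.3 M reads in NeuP, 31.2 and 25.5 M reads in hairpins #2 and #4, and 25.4 M reads in control ESC. Nup153 itself stood at 20.9 and 17.4 FPKM in hairpins #2 and #4, against 39.4 FPKM in control ESC. Of the marker lists, 10 of 11 neural progenitor genes were called higher and 9 of 10 ESC genes lower in NeuP. Feeder fibroblast markers (12 genes, 6 called higher and 1 lower in NeuP) summed to 85.2 and 151 FPKM in NeuP, 16.5 and 15.0 FPKM in the hairpins and 11.2 FPKM in control ESC, and Lum was at 0 in all 3 ESC libraries. Glial markers summed to 293 FPKM in NeuP replicate 1 and 43.3 FPKM in NeuP replicate 2, so the NeuP libraries differed in them. The part of these other cell types in the results below was not tested. In bulk RNA, fewer cells of a type and less RNA per cell cannot be told apart.

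The promoters of 5 members named in the results below are shown. They are RefSeq sequences of GRCm38.p6, from 250 bases before to 50 after the transcript start, read 5′ to 3′ on the gene's strand. In the first 4, capitals mark CpG. The Wnt7a promoter (chr6:91411304-91411603, minus strand, 42 CpG) belongs to the single member with a Ring1B peak in every Ring1B list. Of those lists, only hairpin #2 had its peak over the bases shown. The Wnt3 promoter (chr11:103773925-103774224, plus strand, 24 CpG) and the Fzd10 promoter (chr5:128600856-128601155, plus strand, 45 CpG) belong to genes with a Nup153 DamID peak within 2 kb of the start, which at Fzd10 ends before the bases shown. The Fzd5 promoter (chr1:64737701-64738000, minus strand, 38 CpG) had no peak within 2 kb. In the Dkk1 promoter (chr19:30549447-30549746, minus strand), capitals mark the TCF/LEF letters CTTTGAA and the TATA letters TATAAA.
Wnt7a: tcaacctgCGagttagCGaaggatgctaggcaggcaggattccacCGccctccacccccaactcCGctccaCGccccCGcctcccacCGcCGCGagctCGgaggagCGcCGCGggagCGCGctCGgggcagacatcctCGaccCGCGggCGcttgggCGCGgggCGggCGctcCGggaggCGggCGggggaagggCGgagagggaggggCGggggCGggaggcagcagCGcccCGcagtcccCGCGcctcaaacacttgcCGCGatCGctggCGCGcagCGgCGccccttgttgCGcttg
Wnt3: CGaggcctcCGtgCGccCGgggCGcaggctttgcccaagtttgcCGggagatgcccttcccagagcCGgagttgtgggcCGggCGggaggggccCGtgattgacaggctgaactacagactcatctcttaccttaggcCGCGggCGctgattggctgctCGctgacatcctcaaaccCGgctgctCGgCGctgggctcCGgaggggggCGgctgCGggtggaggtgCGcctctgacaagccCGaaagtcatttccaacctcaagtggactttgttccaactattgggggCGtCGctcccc
Fzd10: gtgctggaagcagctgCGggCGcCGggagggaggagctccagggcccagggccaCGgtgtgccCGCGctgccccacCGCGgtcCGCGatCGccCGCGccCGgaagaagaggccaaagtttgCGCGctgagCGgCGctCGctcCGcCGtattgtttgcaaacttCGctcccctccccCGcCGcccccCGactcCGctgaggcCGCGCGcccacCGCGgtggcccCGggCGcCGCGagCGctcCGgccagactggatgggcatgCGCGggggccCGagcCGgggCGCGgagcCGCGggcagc
Fzd5: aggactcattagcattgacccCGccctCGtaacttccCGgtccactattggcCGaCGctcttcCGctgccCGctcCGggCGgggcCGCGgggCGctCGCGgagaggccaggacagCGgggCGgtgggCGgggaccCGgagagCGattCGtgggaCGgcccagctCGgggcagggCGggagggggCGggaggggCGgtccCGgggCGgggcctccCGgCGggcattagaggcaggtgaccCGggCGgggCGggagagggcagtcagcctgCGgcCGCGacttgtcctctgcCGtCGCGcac
Dkk1: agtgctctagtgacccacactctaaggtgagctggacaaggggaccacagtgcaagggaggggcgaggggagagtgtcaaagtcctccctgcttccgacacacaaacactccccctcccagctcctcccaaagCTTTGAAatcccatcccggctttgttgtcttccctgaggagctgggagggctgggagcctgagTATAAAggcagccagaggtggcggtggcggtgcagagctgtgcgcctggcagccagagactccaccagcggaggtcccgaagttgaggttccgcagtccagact

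RefSeq promoters were matched for 25 of the 37 genes, with 28 entries since Wnt11 had 2 and Wnt5b had 3. The genes named only were Dkk3, Dkk4, Fzd2, Fzd3, Fzd6, Fzd8, Sfrp1, Sfrp4, Wnt10a, Wnt5a, Wnt7b and Wnt8a. The median was 26.5 CpG per 300 bases in the members (range 4 to 58), against 13 in the 20359 promoters of genes in the RNA table. Over all those promoters, the ones of genes with a Cbx7 peak within 2 kb of the start held more CpG (median 18) than the ones without (median 12). The members ran the other way, with a median of 24 CpG in 21 promoters with Cbx7 and 45 CpG in 7 promoters without, although the 7 came from only 5 genes. Of the 7, 3 were Wnt5b entries (7, 4 and 47 CpG), and Cbx7 was read at 1 start per gene, not at each entry. The letters were searched on both strands and none of the patterns contains another. CTTTGAT was in 2 of 28 member promoters (Wnt11 and Wnt5b) and 3.25% of all promoters of table genes. CTTTGAA was in 1 (Dkk1) and 4.53%, the octamer ATGCAAAT in 1 (Sfrp2) and 1.55%, and TATAAA in 4 (Dkk1, Dkk2, Fzd1 and Wnt11) and 12.1%.

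Levels are in FPKM, fragment counts scaled by transcript length and library depth, so that genes of different length can be set side by side. Summed over the 10 Fzd genes, the level was 88.7 and 69.8 FPKM in NeuP, 29.5 and 30.1 FPKM in hairpins #2 and #4, and 22.7 FPKM in control ESC. The 19 Wnt genes summed to 56.6 and 21.8 FPKM in NeuP, 10.0 and 8.46 FPKM in the hairpins and 9.40 FPKM in control ESC. The antagonists ran in the other direction. The 4 Sfrp genes summed to 3.13 and 12.1 FPKM in NeuP, 34.6 and 36.4 FPKM in the hairpins and 29.1 FPKM in control ESC, and the 4 Dkk genes summed to 1.09 and 1.11 FPKM in NeuP, 4.57 and 5.40 FPKM in the hairpins and 5.00 FPKM in control ESC. Summed by family, NeuP thus held more Frizzled and WNT mRNA at equal depth and less SFRP and DKK mRNA than each ESC library. The Wnt sum in NeuP came mostly from Wnt5a, Wnt5b, Wnt7a and Wnt7b, with Wnt7b at 21.5 and 3.63 FPKM. Most of the other Wnt genes lay lower in both NeuP libraries than in every ESC library. Of all genes that reached 1 FPKM in some library, 46.4% did so, but most of these Wnt genes never reached it. Several rested on a few reads, such as Wnt9b with 1 in control ESC and 1 and 5 in hairpins #2 and #4.

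**Figure D1:**
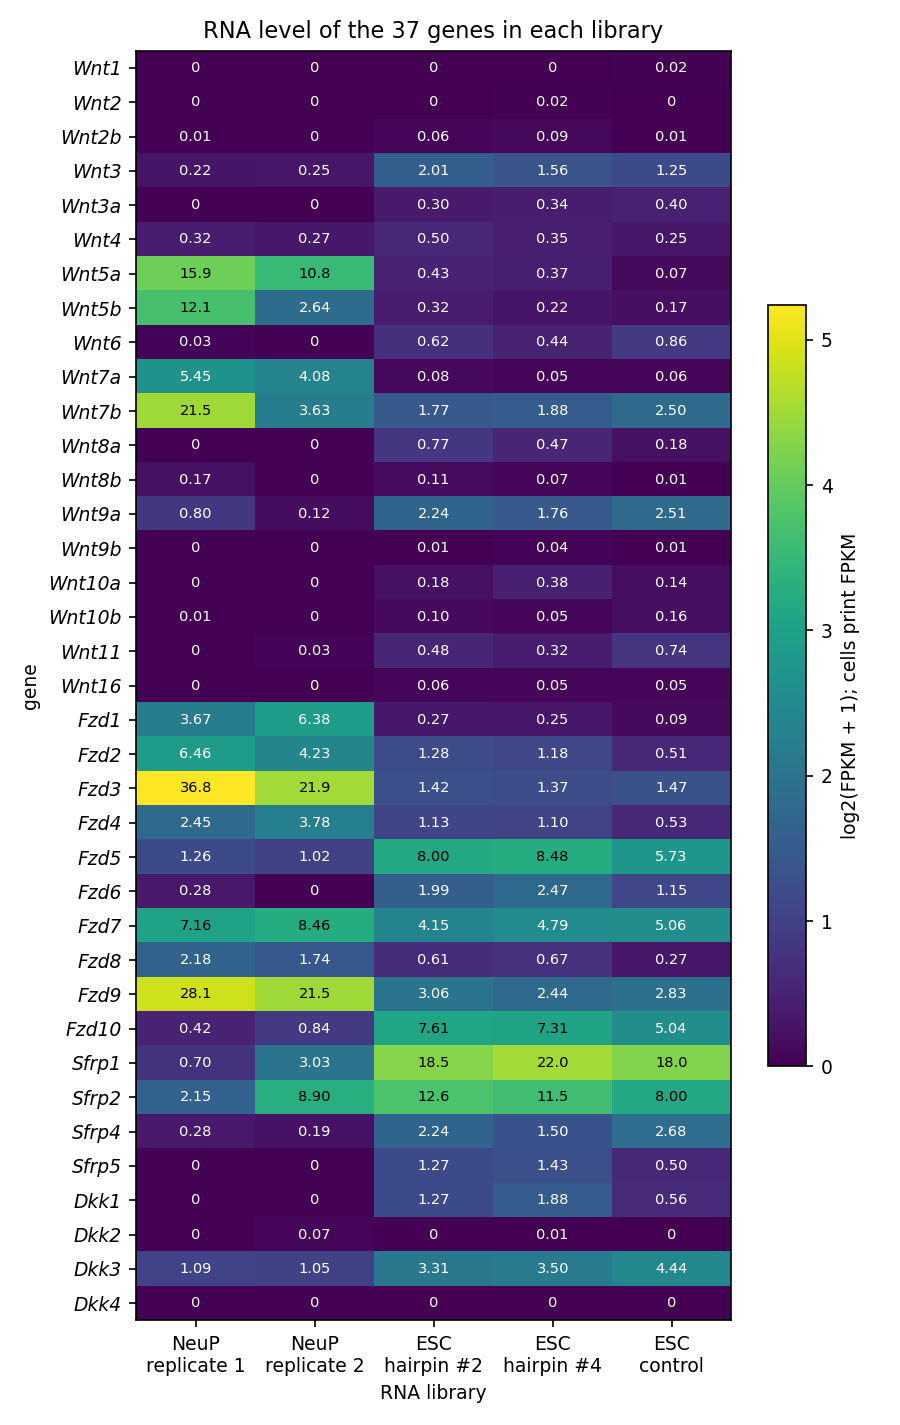
Each cell prints the FPKM of 1 gene (row) in 1 RNA library (column), and the colour gives log2(FPKM + 1). Fzd3 (36.8 and 21.9 FPKM), Fzd9 (28.1 and 21.5 FPKM) and Wnt5a (15.9 and 10.8 FPKM) are bright in both NeuP libraries, and Sfrp1 (18.5 and 22.0 FPKM in the hairpins, 17.97 FPKM in control ESC) is bright in the ESC libraries.

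For the test, log2(FPKM + 1) of the 13750 genes with at least 1 FPKM in at least 1 library was fitted with limma over the 5 libraries in 3 groups, and a gene was called at a Benjamini-Hochberg adjusted p under 0.05. Of the 37 genes, 22 entered: all 10 Fzd, all 4 Sfrp, 6 Wnt and 2 Dkk. Of these 22, 5 reached 1 FPKM only in NeuP (Fzd1, Fzd8, Wnt5a, Wnt5b and Wnt7a), 7 only in ESC libraries and 10 in both. The other 15 genes (13 Wnt and 2 Dkk) stayed under 1 FPKM everywhere, with their highest values between 0 and 0.86 FPKM, and Dkk4 was at 0 in all 5 libraries. The fit took the 2 hairpins, with 1 library each, as replicates of 1 knockdown group, so the difference between hairpins counted as spread. It gives the single control library the same spread as the other groups. Since the labels do not say whether libraries came from separate cultures, p-values measure only the spread between these samples.

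In NeuP against control ESC, 8 of the 22 genes were higher (18.3% of all genes tested were), 8 were lower (24.9% of all) and 6 were not called. By family, 6 of 10 Fzd genes rose and 3 fell, 2 of 6 Wnt genes rose and 1 fell, 3 of 4 Sfrp genes fell, and 1 of 2 Dkk genes fell. Either way, 16 of 22 were called beside 43.2% of all genes, but members that reached 1 FPKM only in 1 cell type had to differ, so this share is no result about the family. The median change was -0.02 on the log2(FPKM + 1) scale over the members and -0.26 over all genes tested. Without regard to the test, both NeuP libraries lay above all 3 ESC libraries at 11 of the 22 members (31.4% of all genes tested) and below them at 10 (46.4% of all). The calls rested on a spread estimated partly from the pair of hairpin libraries. Without the hairpin #2 library, and equally without the hairpin #4 library, 0 genes were called higher and 4 lower (Dkk1, Sfrp4, Sfrp5 and Wnt3), while the changes themselves stayed as given here.

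Among the ligands tested, Wnt5a and Wnt7a rose in NeuP and Wnt3 fell. Wnt5a (chr14:29324591-29338701, plus strand, mm9), a ligand known for beta-catenin-independent signalling in tissue elongation, stood at 15.9 and 10.8 FPKM in NeuP, 0.43 and 0.37 FPKM in hairpins #2 and #4, and 0.07 FPKM in control ESC. Both NeuP libraries were far above the ESC libraries, and the log2 change was 3.71 ± 0.28 (SE, limma adjusted p = 0.00398). Wnt7a (chr6:91313977-91361363, minus strand), which acts in synapse formation and brain vessel growth, had 5.45 and 4.08 FPKM in NeuP and at most 0.08 FPKM in any ESC library, a log2 change of 2.43 ± 0.21 (limma adjusted p = 0.00491). Wnt3 (chr11:103635489-103679335, plus strand), which is needed for the primitive streak, had 0.22 and 0.25 FPKM in NeuP, 2.01 and 1.56 FPKM in the hairpins and 1.25 FPKM in control ESC. Its groups did not overlap, and the log2 change was -0.87 ± 0.17 (limma adjusted p = 0.0265). With quantile normalisation the Wnt3 change shrank to -0.46 (limma adjusted p = 0.134).

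The other 3 ligands tested were not called. Wnt7b, a close relative of Wnt7a, had 21.5 FPKM in NeuP replicate 1 and 3.63 FPKM in replicate 2, against 2.50 FPKM in control ESC, and its log2 change of 1.54 ± 1.03 did not pass (limma adjusted p = 0.287). Wnt5b had 12.1 and 2.64 FPKM in NeuP and 0.17 FPKM in control ESC (2.56 ± 0.84, limma adjusted p = 0.0813, and 0.0354 with a pseudocount of 0.1). For both genes the NeuP libraries lay above all 3 ESC libraries but differed several-fold between themselves, and replicate 1 was the higher. Wnt9a, known from joint formation, had 0.80 and 0.12 FPKM in NeuP, 2.24 and 1.76 FPKM in the hairpins and 2.51 FPKM in control ESC (-1.30 ± 0.35, limma adjusted p = 0.0522, and 0.0389 with a pseudocount of 5). Among the ligands below the filter that were at 0 in both NeuP libraries were Wnt3a, Wnt8a and Wnt10a, with 0.40, 0.18 and 0.14 FPKM in control ESC. The ligand calls depended on the filter. With no filter on low values, Wnt1, Wnt3a, Wnt6, Wnt11 and Wnt16 were also called lower in NeuP, and Wnt1 had only 1 read in control ESC. With a filter at 0.5 FPKM, Wnt6 and Wnt11 were also called lower.

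The Frizzled receptors divided into a set high in NeuP and a set high in ESC. Fzd3, which guides axon growth and planar polarity, had 36.8 and 21.9 FPKM in NeuP, 1.42 and 1.37 FPKM in hairpins #2 and #4, and 1.47 FPKM in control ESC. The ESC libraries lay close together and far below NeuP, with a log2 change of 3.57 ± 0.36 (limma adjusted p = 0.00677). Fzd9 had 28.1 and 21.5 FPKM in NeuP, 3.06 and 2.44 FPKM in the hairpins and 2.83 FPKM in control ESC (2.74 ± 0.26, limma adjusted p = 0.00582). Fzd1 had 3.67 and 6.38 FPKM in NeuP and 0.09 FPKM in control ESC (2.43 ± 0.33), and Fzd2 had 6.46 and 4.23 FPKM in NeuP and 0.51 FPKM in control ESC (2.05 ± 0.27). Fzd4, the receptor of Norrin in retinal vessels, had 2.45 and 3.78 FPKM in NeuP and 0.53 FPKM in control ESC (1.41 ± 0.26, limma adjusted p = 0.0215, and 0.0693 with no filter). Fzd8 had 2.18 and 1.74 FPKM in NeuP and 0.27 FPKM in control ESC (1.21 ± 0.17). In order of level, Fzd3 and Fzd9 led in NeuP and overlapped each other there, followed by Fzd7, then by Fzd1 and Fzd2, which overlapped.

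Fzd5, Fzd10 and Fzd6 fell in NeuP. Fzd10 had 0.42 and 0.84 FPKM in NeuP, 7.61 and 7.31 FPKM in the hairpins and 5.04 FPKM in control ESC (-1.90 ± 0.23, limma adjusted p = 0.00911). Fzd5, which mouse embryos need for yolk sac vessels, had 1.26 and 1.02 FPKM in NeuP, 8.0 and 8.48 FPKM in the hairpins and 5.73 FPKM in control ESC (-1.65 ± 0.18, limma adjusted p = 0.00736). Fzd6, which orients hair follicles, had 0.28 and 0 FPKM in NeuP and 1.15 FPKM in control ESC (-0.93 ± 0.23, limma adjusted p = 0.0435), and this call was lost with voom on recovered reads (adjusted p = 0.119) and with other settings of scale, pseudocount and filter. Fzd7 was the one receptor not called. It had 7.16 and 8.46 FPKM in NeuP, 4.15 and 4.79 FPKM in the hairpins and 5.06 FPKM in control ESC (0.54 ± 0.20, limma adjusted p = 0.111). In control ESC the leading receptors were Fzd5, Fzd7 and Fzd10, at 5.73, 5.06 and 5.04 FPKM, an order that 1 library cannot resolve.

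**Figure D2:**
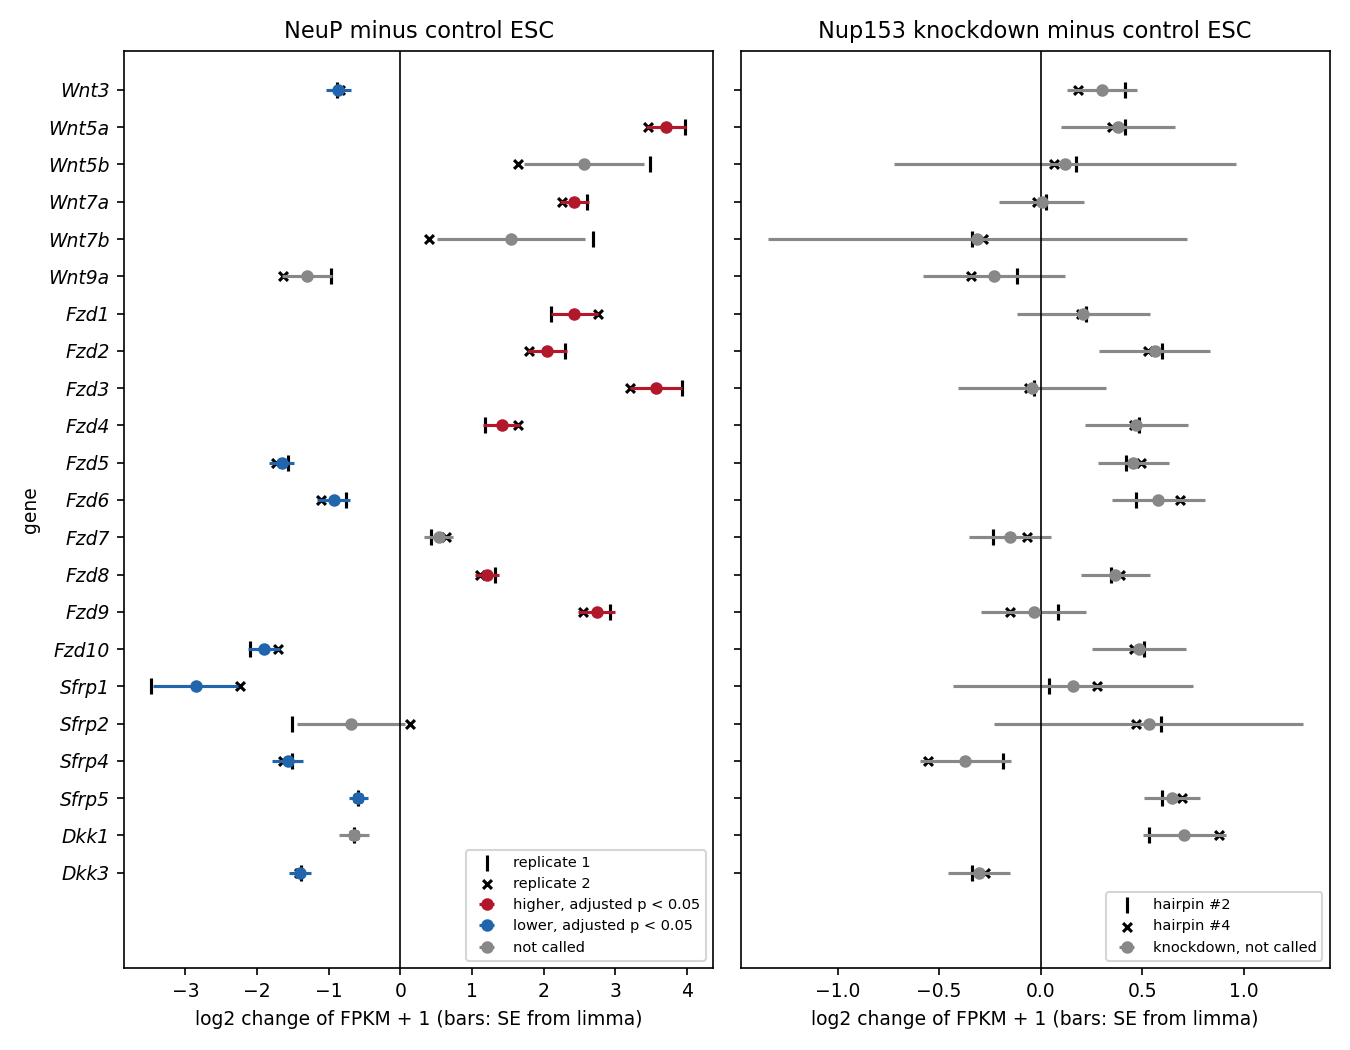
Change on the log2(FPKM + 1) scale for the 22 genes tested, NeuP minus control ESC (left) and Nup153 knockdown minus control ESC (right), with bars for the limma SE and marks for single libraries. Wnt5a (3.71) and Fzd3 (3.57) lie farthest right and Sfrp1 (-2.86) farthest left in NeuP, and no knockdown change passed the test.

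The antagonists fell or did not pass. Sfrp1, the most abundant member in control ESC, had 0.70 and 3.03 FPKM in NeuP, 18.5 and 22.0 FPKM in the hairpins and 17.97 FPKM in control ESC (-2.86 ± 0.59, limma adjusted p = 0.0292, and 0.0932 with no filter). Sfrp4 had 0.28 and 0.19 FPKM in NeuP, 2.24 and 1.502 FPKM in the hairpins and 2.68 FPKM in control ESC (-1.58 ± 0.22, limma adjusted p = 0.0126). Both genes were lower in each NeuP library than in each ESC library. Sfrp5 had no read in NeuP, 1.27 and 1.43 FPKM in the hairpins and 0.50 FPKM in control ESC (-0.58 ± 0.14, limma adjusted p = 0.0397, and 0.0847 with quantile normalisation). Sfrp2 did not pass (-0.69 ± 0.76, limma adjusted p = 0.495), with 2.15 FPKM in NeuP replicate 1 and 8.90 FPKM in replicate 2 on either side of the 7.997 FPKM of control ESC. Dkk3, a divergent member of its family, had 1.09 and 1.05 FPKM in NeuP, 3.31 and 3.50 FPKM in the hairpins and 4.44 FPKM in control ESC (-1.40 ± 0.15, limma adjusted p = 0.00769). Dkk1, the classic blocker of LRP5 and LRP6, had no read in either NeuP library and 0.57 FPKM in control ESC (-0.65 ± 0.20, limma adjusted p = 0.0745), and voom on recovered reads called it lower (adjusted p = 0.00584).

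The rest of the pathway was counted from 4 lists, to be read beside the 18.3% of all genes tested that rose and the 24.9% that fell in NeuP. Listed genes that reached 1 FPKM only in NeuP, such as Frzb, Draxin, Lgr5, Rnf43 and Myc, had to rise if called. Those that reached it only in ESC libraries, such as Dkkl1, Shisa2 and Kremen2, had to fall if called. The counts are therefore no result about the lists. Of 12 genes tested for WNT secretion and other extracellular antagonists, 7 rose and 2 fell in NeuP. Wls, the carrier that takes WNT proteins to the cell surface, had 67.0 and 83.3 FPKM in NeuP, 5.38 and 4.29 FPKM in the hairpins and 1.99 FPKM in control ESC (4.66 ± 0.25, limma adjusted p = 0.00265). Draxin (5.15), Apcdd1 (3.15) and Frzb (2.26), all inhibitors of WNT signalling, rose too. Frzb belongs to the SFRP family by sequence although its symbol does not show it, and it moved opposite to the Sfrp genes that were called. Dkkl1 (-4.34) and Shisa2 (-1.36) fell. Of 23 co-receptors and other receptors, 5 rose and 4 fell, shares near those of all genes. Lgr5, a receptor for R-spondins, had 14.6 and 10.4 FPKM in NeuP and at most 0.03 FPKM in any ESC library (3.73), Celsr2 (2.06), Prickle2 (2.04) and Rnf43 (1.18) also rose, and Ptk7 (-2.53), Ror2 (-2.12), Kremen2 (-0.999) and Lgr4 (-0.98) fell.

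Of 26 genes of the beta-catenin pathway inside the cell, 7 rose and 2 fell in NeuP, beside 18.3% and 24.9% of all genes. Tle2 (2.63), a co-repressor, Amer1 (1.82) and Apc (1.81), of the beta-catenin destruction machinery, and Gsk3b (1.78), its kinase, led the rises. Tcf7, a nuclear partner of beta-catenin, had 0.17 and 2.01 FPKM in NeuP, 30.7 and 29.0 FPKM in the hairpins and 27.8 FPKM in control ESC (-3.94 ± 0.64, limma adjusted p = 0.0168), and Dvl2 (-2.05) also fell. Of 11 target genes tested, 5 rose and 1 (Tcf7) fell, and of these Lgr5, Rnf43 and Tcf7 are also in the lists above. Axin2, a widely used readout of beta-catenin signalling, had 19.7 and 15.3 FPKM in NeuP, 1.57 and 1.22 FPKM in the hairpins and 0.85 FPKM in control ESC (3.31 ± 0.24, limma adjusted p = 0.00383). Myc (3.81), Lgr5 (3.73) and Nkd1 (1.56) rose with it. The list medians in NeuP were 0.07 for receptors, 1.37 for secretion and antagonists, 0.42 inside the cell and 1.18 for targets. The median over all genes tested was -0.26. The filter limit given above for the counts applies to these medians too.

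In the Nup153 knockdown, none of the 22 members was called by limma in either direction, and none of the 13750 genes was (background 0%). Nup153 itself, the targeted gene, was not called either (-1.01 ± 0.55, limma adjusted p = 0.897). At an unadjusted p under 0.05 there were 2 members, Dkk1 and Sfrp5, where 5.92% of all genes passed, and voom on recovered reads called 0 members. Dkk1 had 1.27 and 1.88 FPKM in hairpins #2 and #4, against 0.57 FPKM in control ESC (0.71 ± 0.20, limma adjusted p = 0.825). Sfrp5 had 1.27 and 1.43 FPKM in the hairpins, against 0.50 FPKM in control ESC (0.65 ± 0.14, limma adjusted p = 0.825). Both genes lay higher in each hairpin than in the control library, which both hairpins share. The next largest values were 0.58 for Fzd6, 0.56 for Fzd2 and 0.53 for Sfrp2, and the lowest -0.37 for Sfrp4.

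By sign alone, 14 of 22 members were higher in both hairpins (55% of all genes were), 6 were lower in both (29.5% of all) and 2 were mixed. Among receptors 7 of 10 were higher in both hairpins, and the exceptions were Fzd3 and Fzd7, lower in both, and Fzd9, mixed. No member changed at least 2-fold in both hairpins on the log2(FPKM + 1) scale (0.305% of all genes rose and 0.16% fell by as much). The median knockdown change was 0.26 over the members and 0.08 over all genes tested. An alternative added after the data were seen used the 3 ESC libraries alone with the filter taken over them. It called 6 members higher (Dkk1, Fzd5, Fzd6, Fzd10, Sfrp2 and Sfrp5) and 0 lower, where 15.5% of 12436 genes were higher and 6.26% lower. With the 3 ESC libraries alone and the 5-library filter, 0 members were called.

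Because a pseudocount of 1 hides ratios of weakly expressed genes, plain FPKM ratios were also taken, a choice made after the values were seen and given with no test. Of 29 members with at least 5 control reads, 8 had a ratio of 2 or more in both hairpins, where 4.46% of all such genes were, and 0 were at most 0.5 of control in both, where 0.798% were. All 8 had fewer than 50 control reads, and among genes with 5 to 49 control reads the shares were 8 of 16 members and 14.4% of all. Wnt5a had 50 and 35 reads in hairpins #2 and #4, against 7 in control ESC, which made FPKM ratios of 5.82 and 4.99. Wnt8a, a ligand of posterior patterning, had 36 and 18 reads in the hairpins, against 7 in control ESC. The other 6 were Dkk1, Sfrp5, Fzd1, Fzd2, Fzd4 and Fzd8. Endoderm markers summed to 41.5 and 59.4 FPKM in the hairpins and 27.9 FPKM in control ESC. The feeder fibroblast sum given above was also higher in the hairpins, largely through Col1a1 and Col1a2. The median knockdown change of the feeder fibroblast list was 0.02, beside 0.08 over all genes tested. The part of these cell types in these ratios was not tested.

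Peaks were then read within 2 kb of each transcript start, on the mm9 coordinates of the lists, as present where at least 1 bp overlapped. Cbx7 of control ESC lay at 28 of the 37 genes, where it lay at 13.2% of all 24016. It covered all 4 Sfrp, 16 of 19 Wnt, 6 of 10 Fzd and 2 of 4 Dkk genes. Ring1B lay at 3 members in the NeuP list (10.4% of all genes), at 28 in the hairpin #2 list (24% of all), at 14 in the hairpin #4 list (9.24% of all) and at 10 in the control ESC list (8.1% of all). The lists rest on 33.2 M tags in NeuP, 30.8 M in hairpin #2, 9.95 M in hairpin #4 and 4.99 M in control ESC. Between the ESC lists, with 1 list each at such unequal depth, a difference cannot be told apart from depth. The NeuP list was the deepest and had the fewest members, 3 beside 28 in the hairpin #2 list of like depth and 10 in the shallower control ESC list. With 1 list per group these differences have no replicate check.

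**Figure D3:**
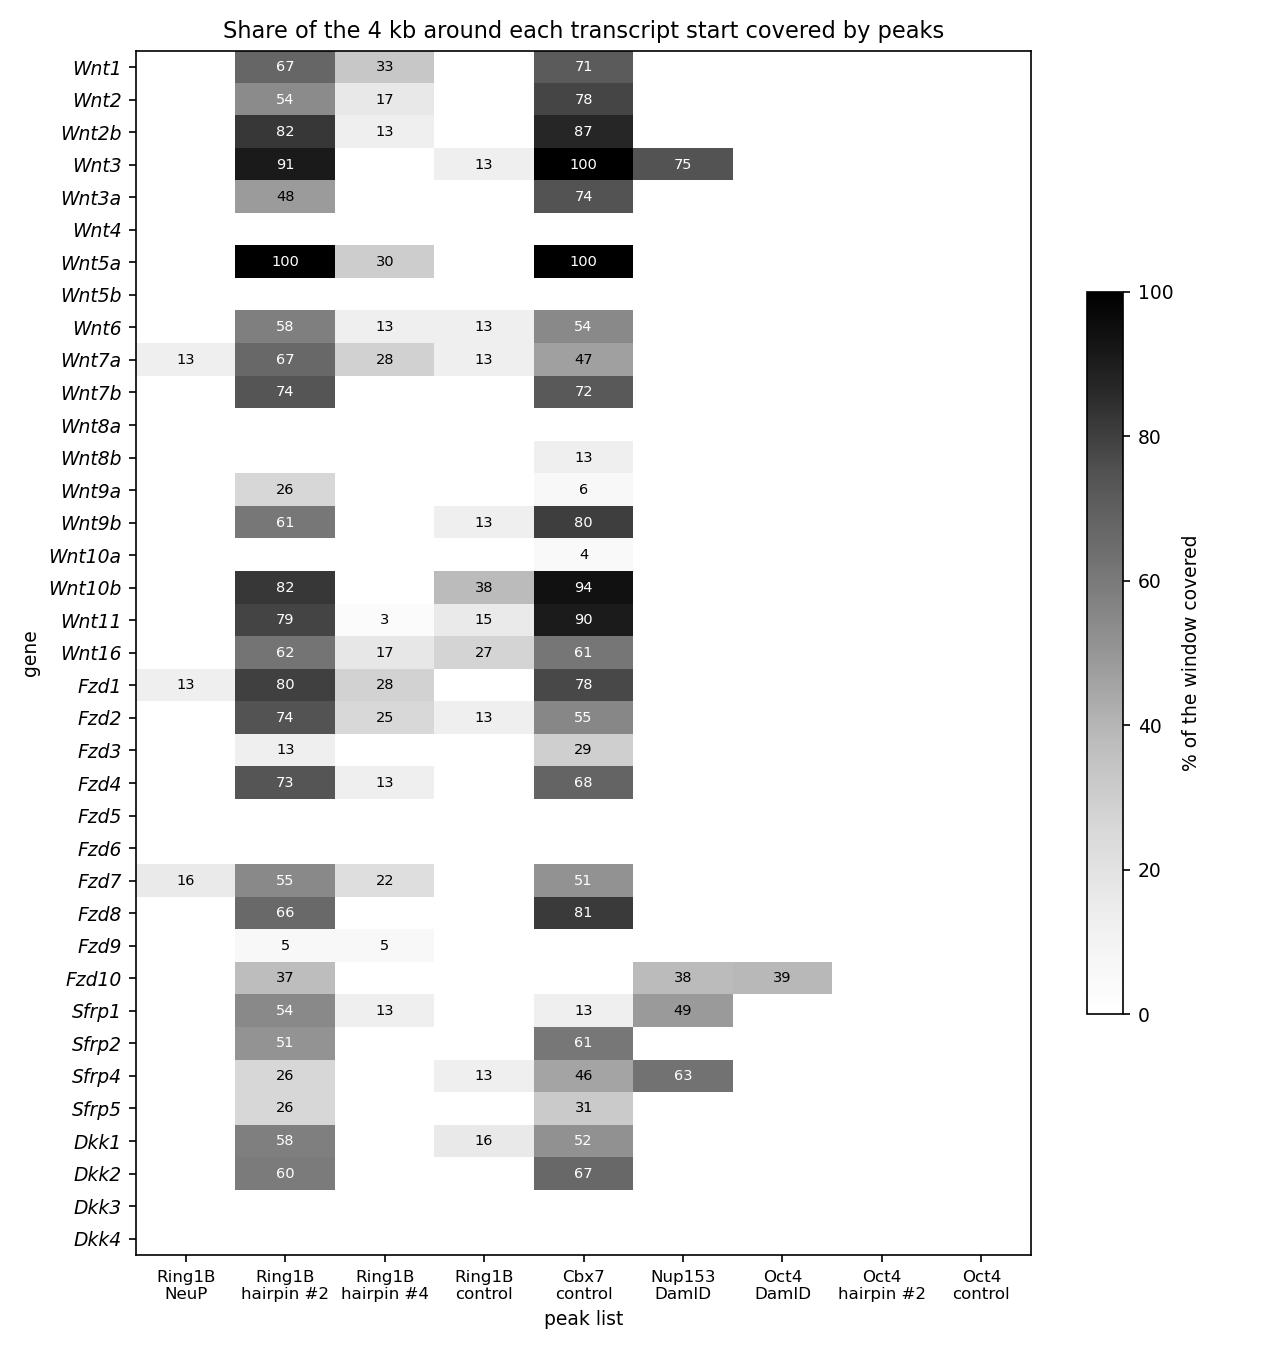
Share of the 4 kb around each transcript start (row) covered by peaks of each list (column), in percent, blank where there is none. Cbx7 of control ESC and Ring1B of hairpin #2 are present at 28 genes each, with shares from 4.42% (Cbx7 at Wnt10a) and 5.30% (Ring1B at Fzd9) to the whole window at Wnt5a, and the NeuP Ring1B column is blank at all but Fzd1, Fzd7 and Wnt7a.

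All 10 members with Ring1B in control ESC also had Cbx7 there, as did 851 of the 1945 genes with control Ring1B (3.54% of all genes). They were Dkk1, Fzd2, Sfrp4, Wnt3, Wnt6, Wnt7a, Wnt9b, Wnt10b, Wnt11 and Wnt16. Hairpin #2 listed Ring1B at all 10, so none was missing there. Of the 1945 genes, 599 were missing in hairpin #2 (2.49% of all genes) and 474 in both hairpins (1.97% of all). Hairpin #4 listed Ring1B at Fzd2, Wnt6, Wnt7a, Wnt11 and Wnt16, the 5 members in all 3 ESC lists (3.51% of all genes), and lacked it at the other 5. Of the 1945 genes, 978 were missing in hairpin #4 (4.07% of all). A further 9 genes had Ring1B in both hairpin lists and not in control ESC (3.41% of all genes): Fzd1, Fzd4, Fzd7, Fzd9, Sfrp1, Wnt1, Wnt2, Wnt2b and Wnt5a. Another 9 had it in hairpin #2 alone among the ESC lists (15% of all). Of the 10 control Ring1B members, 9 had no NeuP peak within 2 kb, as had 1468 of the 1945 genes (6.11% of all genes). No member had Ring1B in NeuP without an ESC list (4.49% of all). Wnt7a alone was in all 4 Ring1B lists (1.17% of all).

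Set against the RNA calls, Cbx7 lay at 7 of the 8 genes higher in NeuP (26.9% of all genes called higher carried it). It lay at 4 of the 8 genes lower in NeuP (11.8% of all called lower). Cbx7 also lay at 5 of the 6 genes tested and not called, and at 28 of all 37 members (13.2% of all genes). Fzd9 was the higher gene without it. Its only Ring1B peaks near the start in the ESC lists were 501 bp wide, 1782 and 1789 bp downstream of the start in hairpins #4 and #2. The 4 lower genes without Cbx7 were Fzd5, Fzd6, Fzd10 and Dkk3. Of the 15 genes under 1 FPKM everywhere, 12 carried Cbx7. No peak of any list lay within 2 kb of Dkk3, Dkk4, Fzd5, Fzd6, Wnt4, Wnt5b or Wnt8a, 7 of 37 members beside 61.9% of all genes.

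The widest domain lay at Wnt5a. Its Cbx7 peak ran from 7706 bp before to 3335 bp after the start, 11042 bp in all, and its hairpin #2 Ring1B peak was 9810 bp wide. Hairpin #4 had 2 short peaks inside the 2 kb window. Control ESC had Ring1B only farther upstream, the nearest peak ending 2106 bp before the start. NeuP, where Wnt5a RNA was high, had its Ring1B peak from 6417 to 4514 bp before the start. At Wnt7a, which also rose, the NeuP Ring1B peak was 501 bp wide, from 309 to 809 bp after the start, inside a Cbx7 peak of 1944 bp in control ESC. At Fzd1 the NeuP peak was 501 bp wide, from 161 bp before to 339 bp after the start. Fzd7 had NeuP Ring1B from 740 to 110 bp before the start, and hairpin #4 had Ring1B from 936 to 57 bp before it.

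**Figure D4:**
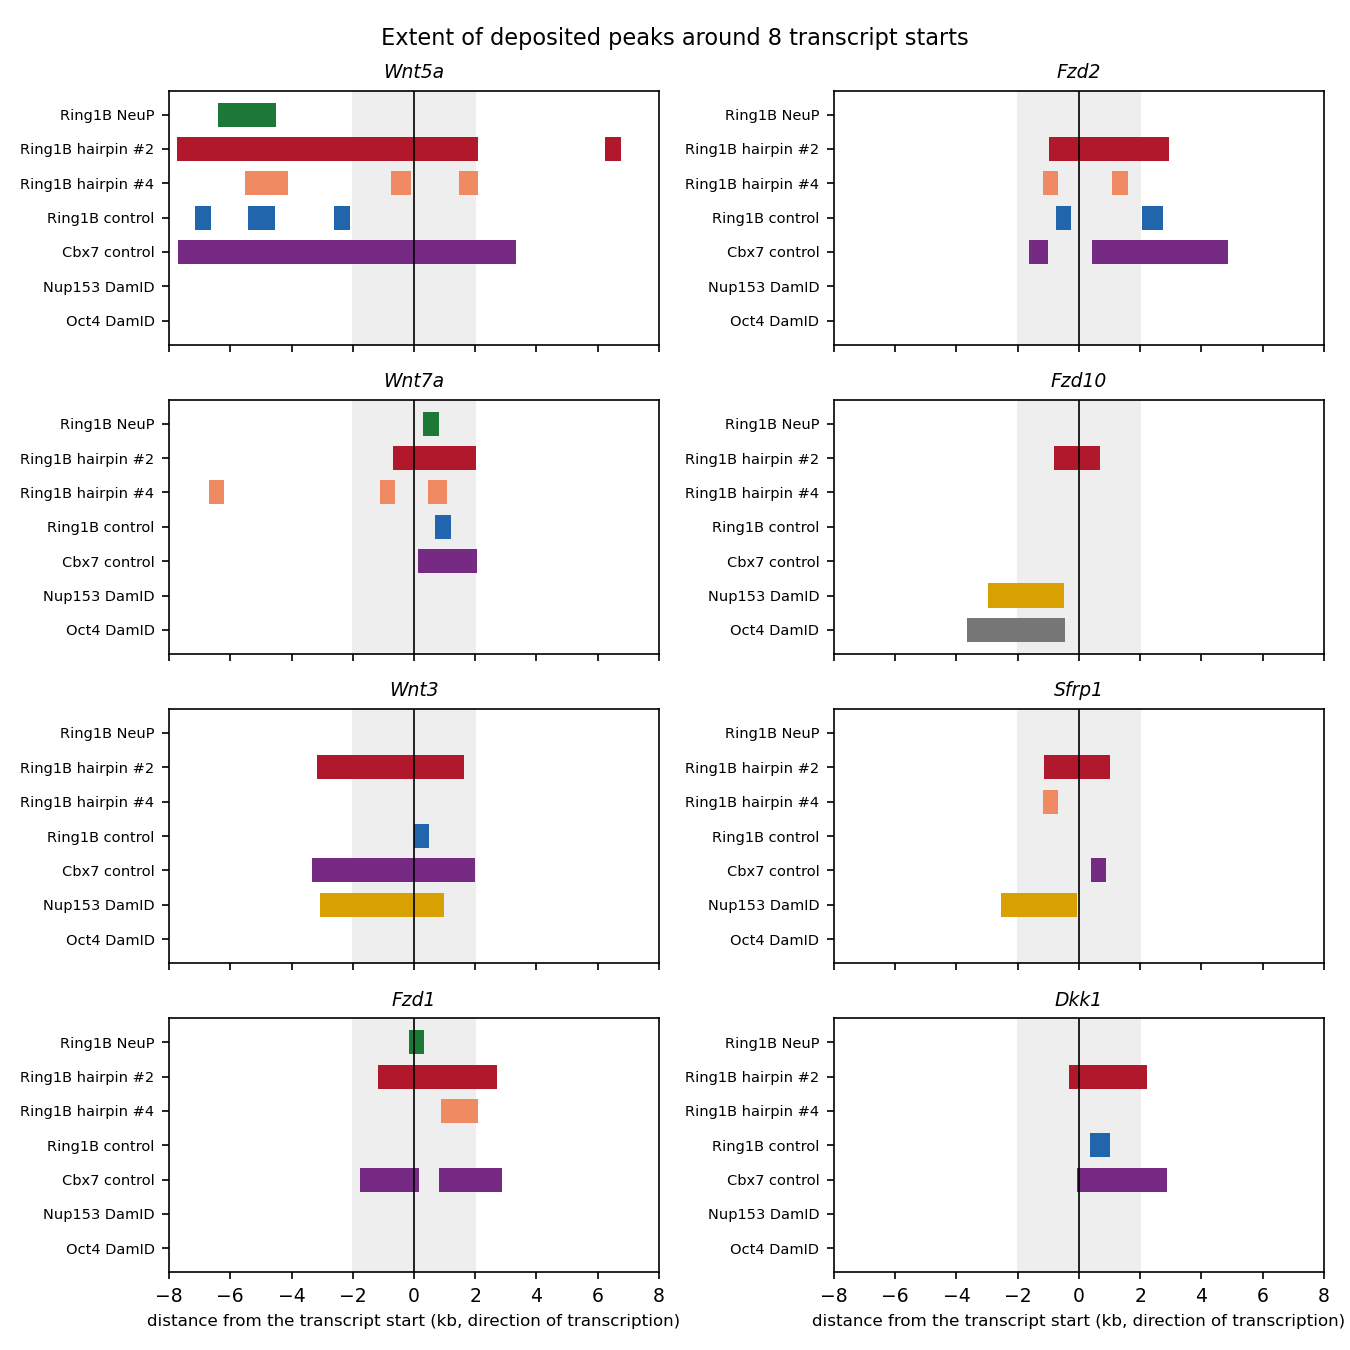
Extent of peaks along the direction of transcription, in kb from the transcript start (vertical line), at 8 genes, with the 2 kb window in grey and 1 row per list. The Wnt5a Cbx7 domain (11042 bp) is the widest, and the Nup153 DamID peaks of Wnt3, Fzd10 and Sfrp1 reach 3080, 2980 and 2557 bp upstream.

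Nup153 DamID peaks lay at 4 members, Fzd10, Sfrp1, Sfrp4 and Wnt3 (5.91% of all genes had one). All 4 were among the 8 genes called lower in NeuP (13.1% of all genes called lower had a peak), and none of the 8 called higher had one (6.84% of all called higher). Fzd10, Sfrp4 and Wnt3 reached 1 FPKM only in ESC libraries and so had to be lower in NeuP if called. The Wnt3 peak was 4065 bp wide, from 3080 bp before to 984 bp after the start, over a 501 bp Ring1B peak of control ESC and a Cbx7 peak of 5325 bp. Sfrp4 was the other member with both Nup153 and control Ring1B (1.82% of all genes had both), with a Nup153 peak from 1230 bp before to 1270 bp after the start. The Nup153 peaks of Fzd10, Sfrp1 and Sfrp4 were each 2501 bp wide, the least and also the median width in that list. Their edges thus need not mark where contact ended. The Sfrp1 peak ended 57 bp before the start. Fzd10 carried Nup153 from 2980 to 480 bp before the start, together with the only Oct4 DamID peak among the members (2.8% of all genes had such a peak). In the knockdown these 4 genes had log2 changes of 0.48 (Fzd10), 0.30 (Wnt3), 0.16 (Sfrp1) and -0.37 (Sfrp4), none called.

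Oct4 ChIP gave no peak within 2 kb of any member, either in hairpin #2 (0.712% of all genes) or in control ESC (0.733% of all). The nearest case was Fzd5, with an Oct4 peak from 3951 to 4125 bp after the start in hairpin #2 and from 4044 to 4220 bp in control ESC. Ring1B of hairpin #2, hairpin #4 and control ESC was listed over the same stretch, 1206, 1155 and 768 bp wide. Fzd5 had no Cbx7 peak near its start.

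Several ligand genes lie in pairs on the chromosome, so their peaks are not independent. The starts of Wnt10b and Wnt1 are 11.7 kb apart on chromosome 15, of Wnt9a and Wnt3a 16.2 kb and of Wnt9b and Wnt3 24.4 kb apart on chromosome 11, and of Wnt6 and Wnt10a 20.1 kb apart on chromosome 1. Within each pair both starts carried Cbx7 in control ESC. Ring1B of control ESC lay at both starts of Wnt9b and Wnt3 and at 1 start, or none, of the other pairs. RNA within pairs differed: Wnt3 had 1.25 FPKM in control ESC beside 0.01 FPKM for Wnt9b, and Wnt9a had 2.51 FPKM beside 0.40 FPKM for Wnt3a.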

How the data were processed

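RNA values are FPKM per gene, deposited by the authors in 1 table for all 5 RNA libraries. Per the submitters' processing notes, tools named without their roles were CASAVA 1.8.2, STAR 2.2.0c, Bowtie2 2.1.0, HOMER 4.6 and edgeR, on mm9. Peak lists were called with HOMER, per the file headers, and were used for position and extent only. Their score column, as deposited, was not used as a measure. The authors deposited 1 DamID list per fusion for 2 libraries, and the sources used here do not give how the libraries were combined. The GFP-fusion and input libraries were not analysed here.

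In every library, all low FPKM values precise enough to tell (rounding error under 0.1 read) fell within 0.1 read of a whole read count, and this gave each library's depth and the reads behind each value. The test was limma 3.58.1 (R 4.3.3, trend on, two-sided) on log2(FPKM + 1), which understates changes of low genes, over genes with at least 1 FPKM in at least 1 library. Benjamini-Hochberg adjustment ran over all 13750 of them, with a threshold of 0.05, and the script was tested on simulated data. Peaks counted as present with at least 1 bp within 2 kb of a transcript start. Python 3.11.15, numpy 2.4.6, pandas 2.3.3 and matplotlib 3.10.9 did the rest. Statistics were given for every member called in a contrast, and those of other members and of plain FPKM ratios were named after their values were seen. The members and pathway lists were chosen with earlier results of these data known. From each pathway list at most 4 called genes per direction were named, the largest first, and Nup153 was given as the targeted gene.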

Additional observations from a re-analysis of the deposited data

How the results depend on the processing

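No paired analysis was possible because control RNA has 1 library, the groups compared share fewer than 2 replicate numbers and each peak list stands alone. The count of 8 members higher in NeuP became 0 in the fit of NeuP and control ESC libraries alone, and ran from 0 to 11 when each NeuP and hairpin library was left out in turn. The single control library cannot be left out, since each contrast rests on it. With no filter on low values, 7 members were called higher and 11 lower in NeuP. The count of 8 lower became 5 with quantile normalisation and 4 with NeuP and control ESC alone, and ran from 4 to 10 with a library left out. Leaving out either hairpin library gave the lowest counts and leaving out either NeuP library the highest. These fits all have the same degrees of freedom, fewer than the fit over all libraries. In the knockdown, 6 members were called higher in the added fit of ESC libraries with their own filter, and 1 (Wnt1) lower with no filter on low values. Calls in the receptor list numbered 9, against 1 with NeuP and control ESC alone and 2 to 16 with a library left out. Those in the secretion list numbered 9, against 2 and 2 to 10 with a library left out. Those inside the cell numbered 9, against 0, 0 to 23 with a library left out and 14 for NeuP against all 3 ESC libraries. Those among targets numbered 6, against 1 and 2 to 9 with a library left out. For peaks, the hairpin #4 Ring1B count of 14 was 9 within 1 kb, the NeuP Ring1B count of 3 was 6 within 5 kb, the Oct4 DamID count of 1 was 0 when the peak centre had to lie in the window, and the Oct4 ChIP counts of 0 were 1 within 5 kb in hairpin #2 and 1 in control ESC (Fzd5 in each). Among single genes, 5 values turned sign, none of them of a gene called in that contrast as reported. In NeuP, Sfrp2 ranged from -1.514 to 0.1374 with a NeuP library left out. In the knockdown, with a hairpin left out, Fzd9 ranged from -0.1531 to 0.08638 and Wnt7a from -0.01639 to 0.02558, and quantile normalisation gave -0.01317 for Wnt5b and -0.04361 for Wnt7a. Of the other single-gene values, 49 NeuP values lost and 19 gained a call under an alternative and 195 kept their side of the threshold, and in the knockdown 249 kept their side of the threshold and 6 gained a call. The cause of these moves was not tested. Genes with few reads limit the precision of FPKM ratios, and Ring1B lists differ several-fold in depth.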
